A study of Mus musculus with 15 samples.

Results

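The cytosolic and mitochondrial chaperones of Ba/F3-beta cells were followed through IL-3 stimulation and Stat5 knockdown. The set is a list of 38 heat shock and chaperonin genes, and every probe set annotated to 1 of them on the murine U74A, U74B and U74C arrays was taken. A probe set of 1 gene symbol existed for 34 of the 38 genes, out of 15964 genes with such a probe set, and these 34 genes had 74 of the 36701 non-control probe sets. Hsp90ab1, Hsf1, Ahsa1 and Trap1 had none and were not analysed here. A probe set counted as measured where its MAS5 signal, a linear hybridisation intensity, reached 120 on at least 1 array, a floor explained with the processing. This was so for 51 of the 74 probe sets and 29 of the 34 genes, and 43 probe sets reached it on all 5 arrays of their design.

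Ba/F3-beta is a mouse pro-B cell line that depends on the cytokine IL-3, which signals in part through the transcription factors Stat5A and Stat5B. The Stat5 siRNA groups were cells given siRNAs against both Stat5A and Stat5B and then IL-3 for 30 min or 2 h. The control siRNA groups were cells given the scramble I siRNA and then no IL-3, IL-3 for 30 min or IL-3 for 2 h. There were 5 conditions and 3 array designs, with 1 array per condition and design, 15 in all, and Stat5 knockdown in unstimulated cells was not analysed here. No sample was replicated, so no SD between samples and no p-value can be given for any difference below, and each value describes single arrays. Where 2 arrays are said to lie above or below the other 3, the share of all probe sets ordered so was not counted.

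Chaperones bind unfolded or partly folded proteins and help them to reach or keep their shape. HSP70 works in cycles of ATP hydrolysis that J-domain proteins start and nucleotide exchange factors end. HSP90 and its partners finish the folding of many kinases and receptors. The ring-shaped CCT complex folds actin and tubulin, and HSP60 with HSP10 folds proteins inside mitochondria. Many of these genes carry heat shock elements in their promoters, which heat shock factors bind under stress.

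Stat5 signals were lower in Stat5 siRNA cells. Stat5b read 166 and 126 in Stat5 siRNA cells at 30 min and 2 h, against 536, 499 and 177 in control siRNA cells without IL-3, at 30 min and at 2 h, on U74B. At 2 h the Stat5 siRNA signal was thus 71.3% of control, since the control signal was itself low there, and at 30 min it was 33.2%. The brighter Stat5a probe set, which can cross-hybridise, read 50.6% of control at 30 min and 53.6% at 2 h. Arrays of 1 design correlated between 0.942 and 0.987 on the log2 scale. Of 12 pro-B and Ba/F3 markers with a probe set, 6 reached the floor, among them the receptor genes Il3ra, Csf2rb and Csf2rb2. Cd79a, Vpreb1 and Igll1 stayed under it, as did all 4 T cell and all 4 myeloid markers. Of 5 fibroblast and epithelial markers 1 reached it, Col1a2. Other transcripts moved with the siRNA. Hba-a1, an erythroid globin, read 1103 and 1172 in Stat5 siRNA cells, against 467, 471 and 447 in control cells, and interferon-response genes were higher in Stat5 siRNA cells. Of 19 such genes measured at 30 min, 7 were 2-fold or more higher (median log2 ratio 0.70), against 0.308% of all genes. Of 20 at 2 h, 9 were (median 0.71), against 0.504%. A gene under the floor in control cells entered these counts only through a high Stat5 siRNA signal. For 6 of the 19 and 8 of the 20, at least 1 ratio had a signal under the floor. The pro-B and Ba/F3 markers were mostly lower. At 30 min 5 of 6 were below 0, with a median log2 ratio of -0.27, and at 2 h 4 of 5, with a median of -0.16. Of all genes, 50.1% were above 0 at 30 min and 50.5% at 2 h. Csf2rb2 read 1619 and 2192 in Stat5 siRNA cells at 30 min and 2 h, against 2213, 2542 and 2689 in control siRNA cells without IL-3, at 30 min and at 2 h. The part of these features in the chaperone values was not tested.

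Most chaperone signals were steady across the conditions. The highest of the 5 arrays exceeded the lowest by a median of 1.30-fold over the 51 measured chaperone probe sets, against 1.39-fold over all 14553 measured probe sets. A range of 2-fold or more was seen in 4 chaperone probe sets, 7.84% of them, against 9.44% of all. These were the probe sets of Dnajb1 on U74A, Hsph1, Ppid, and a Stip1 probe set on U74C that can cross-hybridise. The background here and below was not matched to the chaperones for brightness or design. The median highest signal was 456 for the chaperone probe sets and 308 for all measured ones, and 37 of the 51 were on U74A. Whether the chaperones were steadier than probe sets of like brightness and design was not tested.

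A total of 5 of the genes stayed under the floor on every array. Hspa1a and Hspa1b, the stress-inducible HSP70 genes, reached at most 27.5 and 15.5. Bag3, a nucleotide exchange factor that links HSP70 to autophagy, reached at most 24.0, and the small heat shock protein gene Hspb1 reached at most 13.6. Dnaja2, a J-domain partner of HSP70, came closer, with 81.6 and 98.1 in Stat5 siRNA cells and 68.7, 70.8 and 97.4 in control cells. None of these 5 genes gave a ratio, and a signal under the floor says only that the probes did not detect the transcript at this level.

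Promoter sequences are shown for 2 genes under the floor (Hspa1b and Hspb1) and for 3 measured genes whose signals are described below (Hspe1, Hsph1 and Dnajb1), so that the heat shock elements can be set beside the signals. They come from RefSeq on GRCm38.p6 and are the bases just before the annotated start, 5′ to 3′ on the gene's strand. In the first 4, capitals mark an inverted pair of heat shock units, GAANNTTC or TTCNNGAA, and in Dnajb1 they mark a CCAAT box on the other strand.
Hspe1, chr1:55088028-55088147, plus strand: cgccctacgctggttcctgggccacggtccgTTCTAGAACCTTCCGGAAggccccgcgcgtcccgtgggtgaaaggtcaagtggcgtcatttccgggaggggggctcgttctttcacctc
Hsph1, chr5:149636337-149636456, minus strand: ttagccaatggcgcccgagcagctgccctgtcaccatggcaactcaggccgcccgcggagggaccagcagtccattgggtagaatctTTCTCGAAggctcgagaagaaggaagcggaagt
Hspa1b, chr17:34959239-34959358, minus strand: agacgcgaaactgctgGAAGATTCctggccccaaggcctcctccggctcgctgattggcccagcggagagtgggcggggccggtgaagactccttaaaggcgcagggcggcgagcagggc
Hspb1, chr5:135887799-135887918, plus strand: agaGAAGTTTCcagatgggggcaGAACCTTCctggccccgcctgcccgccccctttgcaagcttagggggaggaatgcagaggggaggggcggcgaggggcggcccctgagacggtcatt
Dnajb1, chr8:83608015-83608174, plus strand: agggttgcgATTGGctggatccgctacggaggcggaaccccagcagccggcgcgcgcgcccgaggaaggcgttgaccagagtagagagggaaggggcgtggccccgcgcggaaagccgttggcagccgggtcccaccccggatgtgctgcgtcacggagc

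The Hspe1 and Hspb1 windows each hold several such pairs, which in Hspe1 overlap in 1 run. The same stretch lies near Hspd1, whose annotated starts on the minus strand are 95 and 216 bases from the Hspe1 start. From the farther start, the HSP60 and HSP10 genes run in opposite directions from 1 short region. The nearer start lies past the Hspe1 start, so a transcript from there would overlap Hspe1. Promoter windows were listed for 30 of the 38 genes. In the 250 bases before a start, either pair was present in 12 of the 30, 40% of them, against 14.5% of 27025 genes. It was present in 3 of the 5 genes under the floor and in 9 of 23 genes at the floor. The STAT palindrome TTCNNNGAA, searched in the same windows, was present in 2 of the 30, Cct5 and Dnajc7, 6.67% against 8.13% of all genes. A CCAAT box on either strand was present in 15 of the 30, 50% against 37.5%. Both pairs and the palindrome read the same on either strand. A match describes these letters only.

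With IL-3 for 30 min, no chaperone gene passed 2-fold in either direction. Of 29 genes measured, 0 were higher and 0 lower, against a background of 0.711% higher and 0.343% lower among 8155 genes. At 1.5-fold 0 were higher and 0 lower, against 2.97% and 2.37% of all genes. The median log2 ratio of the chaperones was -0.02 (all genes -0.01; 0.05 with median scaling), and the median size of the ratio was 0.09, against 0.15 for all genes. The log2 ratio varied with an SD of 0.25 among probe sets of the same gene, the only measure of spread here. This SD pools the array designs and holds no variation between samples. A single chaperone, Dnajb1, exceeded 2 such SDs, against 7.36% of all genes.

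Dnajb1, the HSP40 that delivers unfolded proteins to HSP70, gave the sharpest single signal at 30 min. Its U74A probe set read 441 and 188 in Stat5 siRNA cells at 30 min and 2 h, against 185, 507 and 194 in control siRNA cells without IL-3, at 30 min and at 2 h. Both 30 min arrays were thus above the other 3, with no overlap. In control cells the 30 min signal was 2.73-fold that without IL-3 (log2 ratio 1.45), and 0.631% of U74A probe sets were 2-fold or more higher in that comparison. Its U74C probe set went the other way, with 77.8 and 161 in Stat5 siRNA cells and 160, 112 and 97.4 in control cells. That probe set was dim, and only 2 of its 5 signals reached the floor. The gene's value, the median over both probe sets, was 0.52 on the log2 scale, below 2-fold. The 2 probe sets disagreed in direction, so the early Dnajb1 signal rests on U74A alone.

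The other early values were smaller. Cct8, the theta subunit of CCT, read 662 and 843 in Stat5 siRNA cells at 30 min and 2 h, against 577, 795 and 682 in control cells without IL-3, at 30 min and at 2 h. It was lowest without IL-3, with a log2 ratio of 0.46 at 30 min. Hsph1, an HSP110 protein that exchanges nucleotide on HSP70, had a log2 ratio of -0.41 at 30 min, and its signals are given below.

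**Figure D1:**
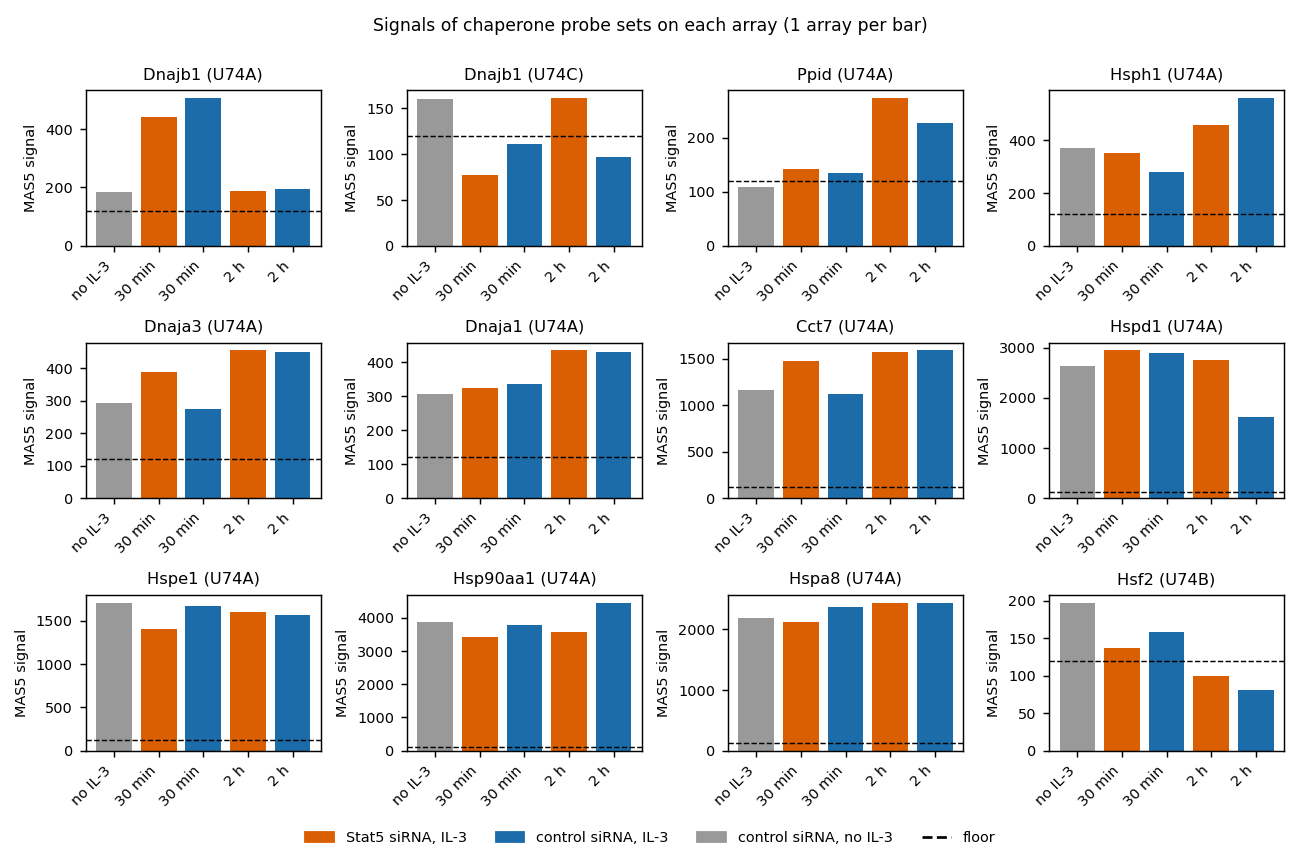
MAS5 signal (linear, y axis) of 12 chaperone probe sets on each of the 5 arrays of their design (x axis), 1 array per bar, with the floor of 120 dashed. Orange bars are Stat5 siRNA with IL-3, blue bars control siRNA with IL-3 and grey bars control siRNA without IL-3. Dnajb1 on U74A is tall in both 30 min bars (441 and 507) and Ppid in both 2 h bars (274 and 228), while Hspd1 is short only in the control 2 h bar (1612).

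With IL-3 for 2 h, 0 of 29 chaperones were 2-fold or more higher and 0 were lower, against 2.45% and 1.63% of 8294 genes. The chaperones' median log2 ratio was 0.12 (-0.0048 without U74C), against -0.03 for all genes, and 16 of 29 were above 0 (55.2%, against 46.2% of all genes). At 1.5-fold, 3 genes were higher (Ppid, Dnaja3 and Hsph1), 10.3% of those measured against 7.92% of all genes, and 2 were lower (Hspd1 and Hsf2), against 8.28%. The median size of the ratio, 0.20, was below that of all genes, 0.25. Probe sets of the same gene varied with an SD of 0.32. Ppid, Hsf2 and Hspd1 exceeded 2 such SDs, 3 of 29 against 13.4% of all genes. That SD pools the designs and was 0.20 within U74A and 0.42 within U74C. By the U74A value, Hsph1, Dnaja3, Dnaja1 and Cct7, read on U74A only, also exceeded 2 SDs. The share of all genes at that cut was not counted.

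Ppid, the cyclophilin Cyp40 that docks on HSP90, had the largest chaperone ratio at 2 h. Its signals were 142 and 274 in Stat5 siRNA cells at 30 min and 2 h, against 108, 135 and 228 in control cells without IL-3, at 30 min and at 2 h. Both 2 h arrays stood above the other 3. Against the cells without IL-3, whose signal was under the floor, the control signal at 2 h was at least 1.90-fold higher (log2 ratio 0.93). The other genes of the HSP90 group were closer to 0. Hsp90aa1, the inducible cytosolic HSP90, read 3423 and 3575 in Stat5 siRNA cells and 3886, 3775 and 4463 in control cells. Stip1 (Hop), which hands clients over to HSP90, had a log2 ratio of 0.21, and Fkbp4 (FKBP52), an immunophilin of steroid receptor complexes, 0.01. All 4 measured genes of this group were above 0 at 2 h, with a median of 0.21, and all 4 stayed above 0 with median and with quantile scaling, against 46.2% of all genes above 0. Probe sets open to cross-hybridisation, which do not enter these values, partly ran the other way: that of Stip1 on U74C gave -1.07, and those of Fkbp4 gave -0.26, -0.27 and 0.43.

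The 4 measured HSP70 genes were likewise all above 0 at 2 h under each scaling, with a median of 0.24, again against 46.2% of all genes above 0. For 2 of the 4 the ratio was 0.16, below the SD of 0.32 between probe sets of a gene. Hsph1 read 353 and 456 in Stat5 siRNA cells at 30 min and 2 h, against 372, 279 and 561 in control cells without IL-3, at 30 min and at 2 h. Its highest signal was control at 2 h and its lowest control at 30 min. The ratio at 2 h was 1.51-fold (log2 0.59). Hspa4, another HSP110 protein, had a log2 ratio of 0.32 as the median of 3 probe sets, which ran between -0.03 and 0.60. Hspa8, the constitutive HSP70, read 2122 and 2437 in Stat5 siRNA cells and 2183, 2378 and 2445 in control cells, a log2 ratio of 0.16. Hspa14, an HSP70-like protein found at ribosomes, also had 0.16.

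Among the HSP70 co-chaperones the values scattered around 0. Of 8 measured, 3 were above 0 at 2 h, and the median was -0.12. Dnaja1, a J-domain protein, was the highest, with 323 and 435 in Stat5 siRNA cells at 30 min and 2 h, against 305, 335 and 429 in control cells without IL-3, at 30 min and at 2 h. Both 2 h signals were above the other 3, and the log2 ratio was 0.49. Stub1 (CHIP), a ubiquitin ligase that marks chaperone clients, was the lowest at -0.32. Dnajb6, a J-domain protein that holds back aggregation, had 0.12, and Dnajc7, which binds both HSP70 and HSP90, had -0.19. St13 (Hip), which steadies the ADP form of HSP70, had -0.15 over 4 probe sets. The exchange factor Bag1 had -0.09 and the exchange factor Hspbp1 had 0.25. Probe sets open to cross-hybridisation, which do not enter these values, ran the other way for Hspbp1 and Stub1. In control cells without IL-3 and at 2 h, that of Hspbp1 on U74C read 487 and 320, and that of Stub1 on U74B read 726 and 777.

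The 8 CCT subunits all reached the floor and none passed 1.5-fold in either IL-3 comparison. At 2 h their log2 ratios ran between -0.33 for Cct2, the beta subunit, and 0.46 for Cct7, the eta subunit, with 4 above 0 and a median of 0.07. Cct7 read 1471 and 1565 in Stat5 siRNA cells at 30 min and 2 h, against 1160, 1116 and 1590 in control cells without IL-3, at 30 min and at 2 h. Its signals fell into 2 levels, with the control arrays without IL-3 and at 30 min low and the other 3 high. Tcp1, the alpha subunit, had -0.17, Cct3 (gamma) 0.14, Cct4 (delta) -0.08 and Cct6a (zeta) 0.23. Cct5 (epsilon) was nearest to 0, within 0.01 of it, and Cct8 (theta) had 0.24. The transcripts of the complex thus did not share 1 direction at 2 h.

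The mitochondrial chaperones diverged at 2 h. Hspd1 (HSP60) read 2949 and 2754 in Stat5 siRNA cells at 30 min and 2 h, against 2639, 2891 and 1612 in control cells without IL-3, at 30 min and at 2 h. The control array at 2 h was alone in being low, and the other 4 lay within 2639 to 2949. Control cells at 2 h were thus 1.64-fold lower than control cells without IL-3 (log2 ratio -0.71). Hspe1 (HSP10), which caps the HSP60 ring and shares its promoter region, read 1411 and 1599 in Stat5 siRNA cells and 1713, 1675 and 1573 in control cells, a log2 ratio of -0.12 at 2 h. The low Hspd1 signal had no counterpart in Hspe1 on the same array. Each of the 2 genes was read by 1 measured probe set.

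Dnaja3, the J-domain partner of mitochondrial HSP70, moved opposite to Hspd1. It read 387 and 456 in Stat5 siRNA cells at 30 min and 2 h, against 292, 276 and 450 in control cells without IL-3, at 30 min and at 2 h. The ratio at 2 h was 1.54-fold (log2 0.62). Hspa9, the mitochondrial HSP70, had a log2 ratio of -0.12, and its 2 probe sets gave -0.14 and -0.09. Hsf2, a heat shock factor, read 137 and 100 in Stat5 siRNA cells, against 198, 158 and 81.3 in control cells without IL-3, at 30 min and at 2 h. It was highest without IL-3 and under the floor on both 2 h arrays, so the control signal at 2 h was at least 1.65-fold lower than without IL-3 (log2 ratio -0.72).

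**Figure D2:**
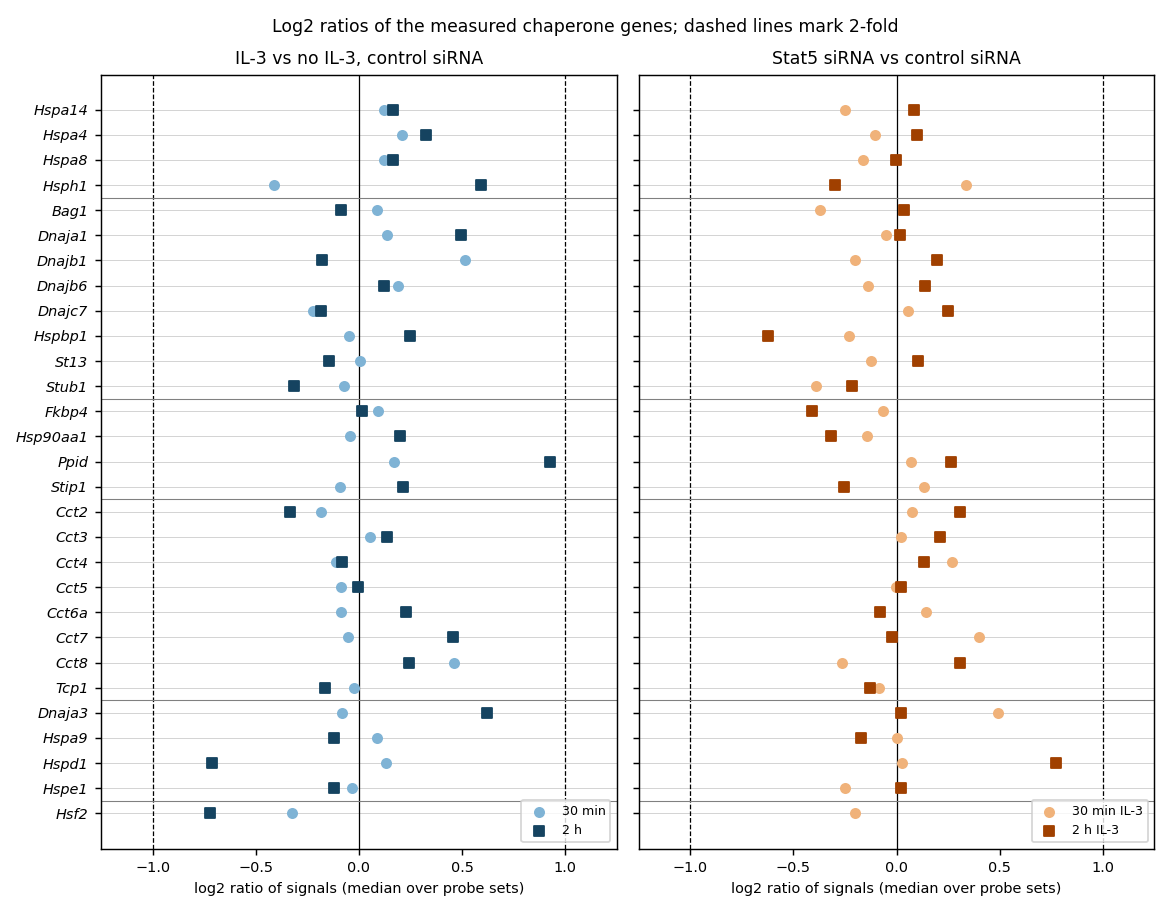
Log2 ratio (x axis) of each of the 29 measured chaperone genes (y axis, grouped by role), as the median over a gene's probe sets; circles are 30 min and squares 2 h, and dashed lines mark 2-fold. The left panel sets IL-3 over no IL-3 in control siRNA cells and the right panel Stat5 siRNA over control siRNA; no gene crosses a dashed line, and Ppid (0.93) and Hspd1 (0.77) lie nearest to one.

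Stat5 siRNA was set against control siRNA at each IL-3 time, to ask which chaperone transcripts depend on Stat5. At 30 min, 0 of 29 were 2-fold or more higher and 0 were lower, against 0.308% and 0.382% of 8124 genes, and none passed 1.5-fold, against 2.07% higher and 2.33% lower. The median log2 ratio was -0.07 (all genes 0.00), or -0.16 with median scaling (all genes -0.05), and the median size 0.14, against 0.15. The largest was Dnaja3 at 0.49, the only chaperone past 2 SDs of the spread between probe sets (0.23), against 8.54% of all genes. Cct7 followed with 0.40 and Stub1 with -0.39.

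Of the 8 HSP70 co-chaperones, 7 were below 0 in Stat5 siRNA cells at 30 min, with a median of -0.17 (8 of 8 below 0 with median scaling). Of all genes, 50.1% were above 0 in that comparison. Stub1 on U74A read 299 and 285 in Stat5 siRNA cells at 30 min and 2 h, against 412, 391 and 331 in control cells without IL-3, at 30 min and at 2 h. Both Stat5 siRNA signals were below all 3 control signals. A second Stub1 probe set, on U74B and open to cross-hybridisation, read 677 and 765 in Stat5 siRNA cells and 726, 770 and 777 in control cells. Its signals differed less, and they overlapped. Bag1 had a log2 ratio of -0.37, with 279 in Stat5 siRNA cells and 360 in control cells at 30 min. By 2 h its ratio was 0.04, and 6 of the 8 co-chaperones were then above 0.

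At 2 h of IL-3, 0 of 28 chaperones were 2-fold or more higher in Stat5 siRNA cells and 0 were lower, against 0.504% and 0.43% of 8132 genes. One gene was 1.5-fold higher, Hspd1, 3.57% of those measured against 3.37% of all genes, and 1 was 1.5-fold lower, Hspbp1, against 3.15%. These shares were near the background, and the median ratio was 0.02 (all genes 0.00), or 0.13 with median scaling (all genes 0.05). Hspd1 was 1.71-fold higher (log2 0.77), and its size comes from the control array at 2 h, which the comparison of IL-3 for 2 h with no IL-3 also uses. The control signals without IL-3 and at 30 min, 2639 and 2891, were close to both Stat5 siRNA signals. Hspbp1, an exchange factor for HSP70, read 446 and 417 in Stat5 siRNA cells, against 541, 522 and 643 in control cells, on U74C. Both Stat5 siRNA signals were below the 3 control signals, and the ratio at 2 h was 1.54-fold lower (log2 -0.62). A cross-hybridising Hspbp1 probe set on the same design did not follow, with 411 and 343 in Stat5 siRNA cells against 487, 344 and 320 in control cells.

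In the HSP90 group at 2 h, 3 of 4 genes were below 0 in Stat5 siRNA cells under each scaling, and the median was -0.29, where 50.5% of all genes were above 0. Fkbp4 read 282 and 211 in Stat5 siRNA cells at 30 min and 2 h, against 278, 296 and 280 in control cells without IL-3, at 30 min and at 2 h. The Stat5 siRNA signal at 2 h was alone in being low (log2 ratio -0.41), and 3 further Fkbp4 probe sets open to cross-hybridisation gave -0.22, -0.20 and -0.02. Hsp90aa1 had -0.32 and Stip1 -0.25, while Ppid had 0.26. The cross-hybridising Stip1 probe set gave 0.21, opposite to the gene's value. All 4 ratios were below 1.5-fold in size. Of the CCT subunits 5 of 8 were above 0 at both times, with medians of 0.05 at 30 min (-0.05 with median scaling) and 0.08 at 2 h, and Cct2 and Cct8 were the highest at 2 h, both at 0.31.

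Between 30 min and 2 h of IL-3, the change over time can be read on 2 separate pairs of arrays, since the Stat5 siRNA pair and the control pair share none. In Stat5 siRNA cells, 0 of 29 chaperones were 2-fold or more higher at 2 h than at 30 min and 0 were lower, against 1.64% and 1.19% of 8247 genes. At 1.5-fold 1 was higher there, Ppid, against 6.32%, and 0 were lower, also against 6.32%. In control cells, 1 was higher, Hsph1, against 1.89% of 8234 genes, and 1 was lower, Dnajb1, against 1.65%. Neither call held throughout: 0 genes were higher with median scaling, and 0 were lower with the floor halved, where Dnajb1 had -0.79. At 1.5-fold 3 were higher in control cells (Hsph1, Ppid and Dnaja3), against 6.74%, and 2 were lower (Dnajb1 and Hspd1), against 7.94%. Hsph1 was 2.01-fold higher at 2 h (log2 1.01), and in Stat5 siRNA cells its log2 ratio was 0.37. Dnajb1 was 2.62-fold lower in control cells (log2 -1.39), a value of the U74A probe set alone, because the U74C probe set was under the floor on both arrays. In Stat5 siRNA cells the U74A probe set gave -1.23, and the U74C probe set, at least 0.43, pulled the gene's median to -0.40. The U74A decline was thus present with and without the Stat5 siRNA.

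Ppid gave close values in both pairs, 0.95 in Stat5 siRNA cells and 0.76 in control cells. Dnaja1 had 0.43 and 0.36, and Hspa4 had 0.51 and 0.21. Cct7 had 0.09 in Stat5 siRNA cells and 0.51 in control cells, and Dnaja3 had 0.23 and 0.70. Both had higher signals in Stat5 siRNA cells than in control cells at 30 min. Hspd1 had -0.10 in Stat5 siRNA cells and -0.84 in control cells. Over the 29 chaperones the change over time correlated between the 2 pairs with Pearson's r of 0.585 and Spearman's rho of 0.522, and 20 genes, 69.0%, had the same sign. Over 7924 genes the values were 0.614, 0.529 and 67.9%. The 29 include Dnajb1, whose control value rests on U74A alone and whose Stat5 siRNA value also uses U74C. These correlations run across genes, which are not independent, and describe the arrays only; the chaperones did not stand apart from all genes in them. The siRNA ratios at 30 min and 2 h, which also share no array, correlated over 28 chaperones with r of 0.059 and rho of 0.024, and 13 genes, 46.4%, had the same sign. Over 7699 genes these were 0.204, 0.164 and 55.9%.

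**Figure D3:**
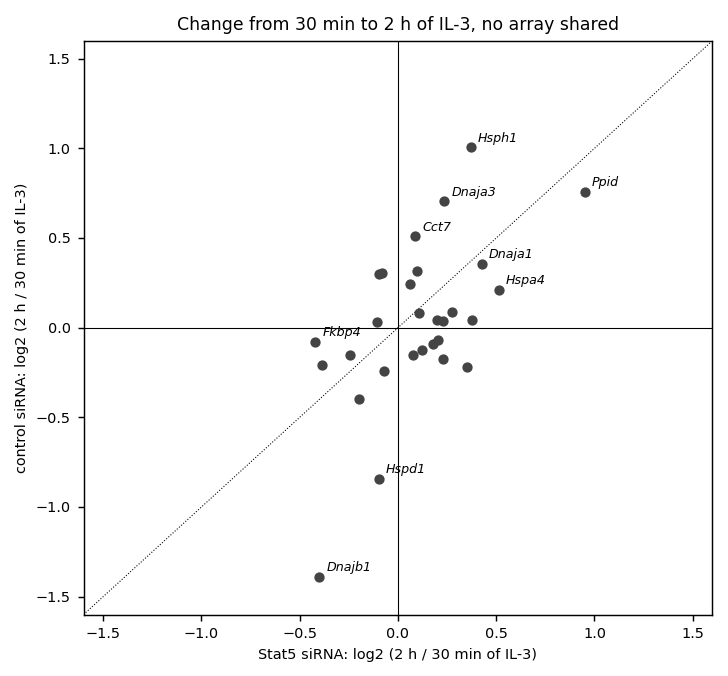
Log2 ratio of 2 h over 30 min of IL-3 for the 29 measured chaperone genes, in Stat5 siRNA cells (x axis) and in control siRNA cells (y axis), with 1 point per gene; the dotted diagonal marks equal values. Ppid (0.95 and 0.76) lies near the diagonal at the upper right. Hsph1 (0.37 and 1.01), Hspd1 (-0.10 and -0.84) and Dnajb1 (-0.40 and -1.39) lie away from it. The Dnajb1 values rest on different probe sets, U74A and U74C in Stat5 siRNA cells and U74A alone in control cells. By U74A alone they were -1.23 and -1.39.

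A further list held 52 chaperone and folding genes outside the set. The median size of their log2 ratios was 0.18 at 30 min of IL-3 and 0.30 at 2 h, against 0.15 and 0.25 for all genes. Of 40 measured, 0 passed 2-fold at 30 min of IL-3; the largest ratios were 0.70 for Bag5, an exchange factor seen only by cross-hybridising probe sets, and -0.64 for the prefoldin subunit Pfdn4. At 2 h, 1 of 41 was higher and 1 lower, against 2.45% and 1.63% of all genes. At 1.5-fold 6 were higher, 14.6% against 7.92% of all genes, and 3 were lower, 7.32% against 8.28%. Ppif, the mitochondrial cyclophilin, was 2.12-fold higher with IL-3 for 2 h than without, and Hscb, a J-domain protein of iron-sulphur cluster assembly, was 2.34-fold lower. Ppif was also 2.17-fold higher at 2 h than at 30 min in Stat5 siRNA cells (log2 1.12), and its log2 ratio in control cells was 0.85. Of all genes, 1.64% were 2-fold or more higher between the times in Stat5 siRNA cells. Hscb was 2.03-fold lower at 2 h than at 30 min in control cells, where 1.65% of all genes were 2-fold or more lower. Neither siRNA comparison held a gene of this list past 2-fold. At 30 min the largest were Bag5 (-0.67) and Dnajc21 (-0.58, a bound), and at 2 h Ppif (0.80) and Hscb (0.62). The Hscb ratios given here all use the control signal at 2 h, and both Bag5 ratios use the control signal at 30 min. They are thus not separate observations. Ppid and Ppif, each named for its large ratio, were higher at 2 h of IL-3 than at 30 min under either siRNA. Both ratios of Stat5 siRNA over control at 2 h were above 0, and other cyclophilins were not compared.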

How the data were processed

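RNA from 5 conditions was hybridised to U74A, U74B and U74C arrays, 15 in all. The values deposited by the authors are linear signal intensities per probe set, normalized with MAS5, per the series' design text and the submitters' processing notes. Trimmed means (2% left out at each end) lay between 150.04 and 150.1, and each array was scaled to a common one. The floor, 119.866, is the signal that 14553 probe sets reached on their highest array, the number that passed the authors' filters per the design text. Signals under it were raised to it before log2 ratios, and a gene's value is the median over its measured probe sets, with cross-hybridising ones (_f_at, _r_at, _i_at, _x_at) used only where no other exists. A ratio with 1 signal under the floor is a bound. Ratios are called at 2-fold, as the design text does, with no test, since each condition has 1 array per design; their number limits the precision. Of the probe sets, 29131 had 1 symbol, 724 several and 6846 none in the platform annotation, and all 34 listed symbols were current.

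The members and lists were chosen with earlier results of these data known. Named are Stat5a and Stat5b, every measured member, with all 5 signals for those past 2-fold or among the 3 largest ratios of a comparison, and of the other chaperones those past 2-fold or among the 2 largest. Each count was recomputed under 9 alternatives. The calculation was tested on simulated data (Python 3.11.15, numpy 2.4.6, pandas 2.3.3, scipy 1.17.1).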

Additional observations from a re-analysis of the deposited data

Results flagged for a closer look

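The siRNA ratio of 2 of 28 chaperones had opposite directions at the IL-3 times. Both values of each were larger than the spread between probe sets of the same gene. The share of all genes that met this rule was not counted. The same sign at both times was seen in 46.4% of the chaperones and 55.9% of all genes. Hsph1 had a log2 ratio of Stat5 siRNA over control siRNA of 0.34 at 30 min and -0.30 at 2 h. Cct8 had -0.27 at 30 min and 0.31 at 2 h. Each of the 4 values comes from 1 pair of arrays and 1 probe set, none reached 1.5-fold, and the difference between the times was not tested.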

How the results depend on the processing

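No paired analysis was possible because each condition had 1 array per design and no replicate numbers, and for the same reason no replicate could be left out. Of 108 counts of chaperones past the threshold under 9 alternatives, 89 stayed at the reported value or near it and 19 moved. Leaving out cross-hybridising probe sets could not change a count, since no measured chaperone rested on them alone. With 1.5-fold in place of 2-fold, 3 were higher and 2 lower with IL-3 for 2 h, 1 higher and 1 lower with Stat5 siRNA at 2 h, 3 higher and 2 lower between the times in control cells, and 1 higher in Stat5 siRNA cells. With IL-3 for 30 min, 1 was higher (Dnajb1) with the floor doubled, with the brightest probe set per gene and with U74A and U74B only. With IL-3 for 2 h, 1 was higher (Ppid) and 1 lower (Hsf2) with the floor halved and with low signals left as they were. Between the times in control cells, 0 were higher with median scaling and 0 lower with the floor halved. In Stat5 siRNA cells, 1 was higher (Ppid) with median scaling, and 1 was lower (Dnajb1) with the brightest probe set and with U74A and U74B only. The Dnajb1 counts follow from which of its probe sets enters, and the Ppid and Hsf2 counts with IL-3 for 2 h from signals near the floor; the cause of the others was not tested. With IL-3 for 2 h, the chaperones' median of 0.12 lay between -0.0048 and 0.16 across the alternatives, lowest with U74A and U74B only. Of 172 values of single genes, 163 stayed within the spread between probe sets, 9 moved and 0 changed sign. Not all of them could move. The 22 values without cross-hybridising probe sets equal the main ones by construction. So do values with the brightest probe set, or with U74A and U74B only, for a gene whose value rests on 1 U74A probe set. Those that moved were Dnajb1 with IL-3 for 30 min (0.52; 1.08 with the floor doubled, 1.45 with U74A and U74B only or the brightest probe set), Hsf2 with IL-3 for 2 h (-0.72; -1.28 with the floor halved or not applied), Fkbp4 under the siRNA at 2 h (-0.41; -0.11 with U74A and U74B only), Dnajb1 between the times in control cells (-1.39; -0.79 with the floor halved, -1.08 doubled) and Ppid between the times in Stat5 siRNA cells (0.95; 0.19 with the floor doubled).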

Other observations

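A list of 23 genes of protein folding in the endoplasmic reticulum, the compartment where secreted proteins fold, was read in the same way. In each comparison 19 were measured, and 0 passed 2-fold in any of the 6, where between 0.308% and 2.45% of all genes were 2-fold or more higher; with no replicates there was no test. Hspa5 (BiP), the HSP70 of this compartment, was 1.56-fold higher with IL-3 for 2 h than without (log2 ratio 0.64). With Stat5 siRNA at 2 h, the protein disulphide isomerase gene Pdia3 was 1.54-fold higher (log2 0.62). P4hb, another isomerase, was 1.68-fold lower (log2 -0.74), on cross-hybridising probe sets only. The 2 isomerases had opposite directions in that comparison.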
